A study of Drosophila melanogaster with 48 samples.

Results

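Brains of uninjured male flies labelled Tau-KO were compared with brains of uninjured w1118 males, gene by gene. The comparison used the 6 control male libraries, 3 of each strain, out of 48 in the series, and took every gene of the count table with no selection by level or name. The remaining libraries are control females and brains of both sexes dissected 1, 2 or 4 hr after a single blow to the body, again with 3 libraries for each strain, sex and time. All flies were adult and mated, 10 to 14 days old, and every dissected brain, controls included, was held under near-infrared (NIR) light for 2 hr before RNA was taken. Both control groups therefore share the kind of exposure, and their labels differ in strain alone. Brains were placed in a dish by condition for the exposure, so strain may coincide with dish and session. Whether the 3 brains of a group shared a dish is not given. RNA of single brains (15 ng per library) went into a kit that reads only the 3′ end of polyadenylated transcripts, and counts therefore do not grow with transcript length.

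w1118 is a laboratory strain of Drosophila that carries a loss-of-function allele of white, and its flies came from a public stock center. The source, the allele and the genetic background of the Tau-KO flies are not given in the sources used here, nor whether they were crossed into the w1118 background. A difference between the groups can thus belong to the tau locus or to any other locus at which the strains differ. It can also belong to the dish or session of exposure, and these cannot be told apart. Tau is a protein that binds along microtubules and is abundant in axons. In disease and after injury it becomes heavily phosphorylated by several kinases and leaves the microtubule, which is why its loss is studied in flies as well as in mice. Flies have 1 tau gene and further structural microtubule-associated proteins, among them futsch, the homologue of mammalian MAP1B.

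The 3 w1118 libraries held 588917, 1165793 and 737629 counts in genes, and the 3 Tau-KO libraries held 39517, 891279 and 1198452. Tau-KO replicate 1 was the shallowest of all 48 libraries. A single count there equals 19.2 CPM (the usual depth-scaled count, adjusted for library composition by TMM), against 0.921 to 1.64 CPM in the other 5, so low genes in this library can only take values such as 0, 19.2 or 38.4 CPM. w1118 replicate 2 and Tau-KO replicates 2 and 3 stood apart: even the most similar other library differed from each of them by over 4 times what counting noise gives, which held for 16 of the 48 libraries in all. This ratio grows with depth, so few counts can keep a library under the limit. Tau-KO replicate 1 was at 1.36, closest to w1118 male 1 hr replicate 3, another shallow library (59781 counts). The 6 libraries did not sort by strain. Spearman's rho was taken over the 2000 tested genes with the highest mean log CPM. It was 0.946 between w1118 replicates 1 and 3 and 0.755 between w1118 replicates 1 and 2. By contrast, w1118 replicate 2 reached 0.898 with Tau-KO replicate 3 and 0.886 with Tau-KO replicate 2. Tau-KO replicate 1 was at 0.844 with w1118 replicate 1 and at 0.575 with Tau-KO replicate 3. The non-coding RNA MRE16 was at 29600, 138000 and 74700 CPM in w1118 and at 9200, 99100 and 180000 CPM in Tau-KO, which is the same order as the depth of the 6 libraries. The part of depth and of MRE16 in the strain differences was not tested. Neuronal RNA was present in all 6 libraries. The neuronal vesicle gene nSyb was at 543 to 658 CPM in w1118 and at 404 to 567 in Tau-KO. The neuron marker elav was at 212 to 285 and 144 to 307. These genes do not show that the tissue was brain alone, and genes of other tissues are given below. The markers of sex that were read did not bear out the sex labels. The male-limited RNA roX1 was at 922 to 1150 CPM in w1118 control males and 699 to 951 in w1118 control females, but at 749 to 999 in Tau-KO control males and 895 to 1330 in Tau-KO control females, and the yolk protein gene Yp1 overlapped between the sexes in both strains. Male and female are therefore the names of the labels throughout.

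The targeted gene was not lower in the libraries labelled Tau-KO. RNA of tau was at 177, 116 and 151 CPM in the 3 w1118 control males and at 135, 113 and 183 CPM in the 3 control males labelled Tau-KO, from 108, 126 and 110 counts and from 7, 95 and 196 counts. The groups overlapped completely. The log2 fold change was −0.02 ± 0.335 (SE, n = 3 per strain) with a 95% interval of −0.70 to 0.66, and the adjusted p was 1 in edgeR's quasi-likelihood test. Its sign followed the choice of library: leaving out 1 library at a time gave −0.30 to 0.17. Over all groups the picture was the same, with a median of 152 CPM (62.0 to 200) in the 24 w1118 libraries and of 143 CPM (91.6 to 256) in the 24 libraries labelled Tau-KO. The count shows only that RNA of the 3′ end of the gene is present in both strains. If the Tau-KO allele leaves the counted 3′ end in place, this measurement does not check the label. Since the allele is not described in the sources used here, Tau-KO is used below as the name of the label.

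**Figure D1:**
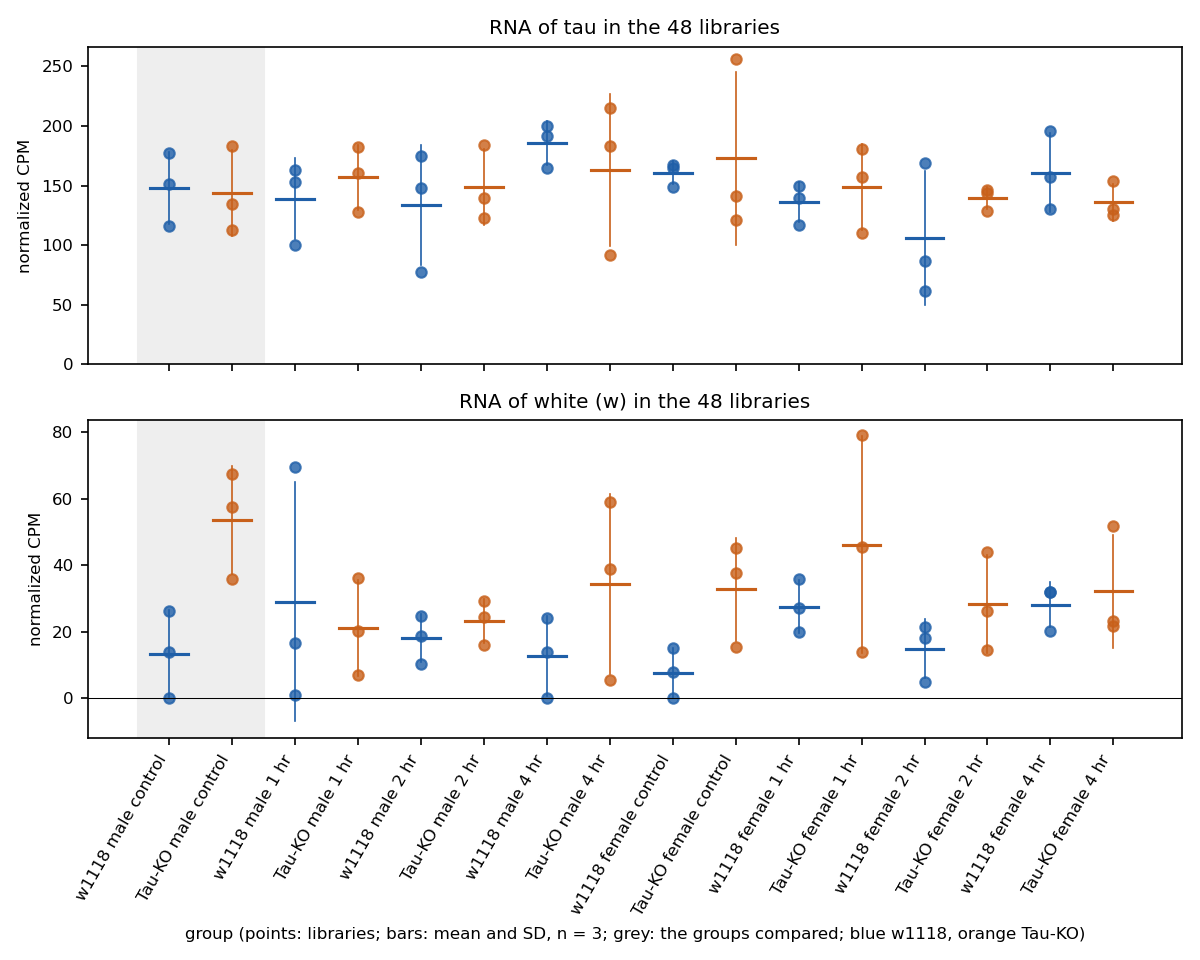
Normalized CPM of tau (top) and white (bottom) in each of the 48 libraries, by strain, sex and time. Points are libraries, horizontal bars group means and vertical bars 1 SD (n = 3); the grey band marks the control males. The tau points of the 2 strains cover the same range, and white lies higher in Tau-KO control males (35.8 to 67.3 CPM) than in w1118 control males (0 to 26.2 CPM).

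RNA of white (w), an ABC transporter subunit that carries pigment precursors in the eye and is mutated in w1118, was at 26.2, 0 and 13.8 CPM in w1118 control males and at 57.6, 35.8 and 67.3 CPM in Tau-KO control males. Every Tau-KO library was above every w1118 library. These values rest on 16, 0 and 10 counts against 3, 30 and 72. The log2 fold change was 2.04 ± 0.976 (SE), with an unadjusted p of 0.0409 and an adjusted p of 1 (edgeR), so the difference did not pass the threshold. The value was 3.03 without w1118 replicate 1 and 1.40 without w1118 replicate 2, the library with no count. White was read in libraries that this contrast did not use as well. In control females it was at 0, 7.80 and 15.1 CPM in w1118 and at 45.2, 37.5 and 15.5 CPM in Tau-KO, a log2 fold change of 2.01, and in injured males the log2 fold change was 0.67. Over 24 libraries per strain the median was 18.5 CPM in w1118, where 3 libraries had no count, and 32.5 CPM in Tau-KO, where all had counts. Of 12 eye pigment genes tested, 6 had a positive log2 fold change and the median was 0.01. Scarlet (st), whose product pairs with that of white, was at 4.91, 0.921 and 2.75 CPM against 0, 5.97 and 32.7 CPM, a log2 fold change of 2.53 (−0.09 to 5.34) with an unadjusted p of 0.0576.

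No gene passed the threshold between the strains. Of 16995 genes in the table, 5821 had enough counts to be tested, and 0 of them (0%) reached an adjusted p under 0.05 with an absolute log2 fold change over 1 in edgeR's quasi-likelihood test on all 48 libraries. DESeq2 also gave 0, and edgeR without the filter on low counts gave 2, named below. The smallest unadjusted p was 0.000355 and every adjusted p was 1. At an unadjusted p under 0.05 and the same fold limit, the rule used in the study's plots, 167 genes (2.87% of those tested) were listed, 60 higher (1.03%) and 107 lower (1.84%) in Tau-KO. Without the fold limit there were 195 genes, while 291 would have such a p if p-values were spread evenly. DESeq2 listed 220 at the unadjusted rule. The 3 libraries of one strain lay wholly above or below those of the other for 432 genes (7.42%), of which 134 (2.3%) were higher and 298 (5.12%) lower in Tau-KO. The split by direction moved with single libraries: it was 54 higher and 219 lower without Tau-KO replicate 3, 44 and 132 without Tau-KO replicate 2, 81 and 172 without Tau-KO replicate 1, and 83 and 90 without w1118 replicate 3. A fit without the 3 libraries that stood apart leaves Tau-KO replicate 1 as the only library of its group, with the spread taken from the other groups. It gave 0 genes at an adjusted p and 248 unadjusted, 27 higher and 221 lower, with the median of all genes tested at −0.67, and 33% of those genes have no count in that library. Nothing is read from its list.

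**Figure D2:**
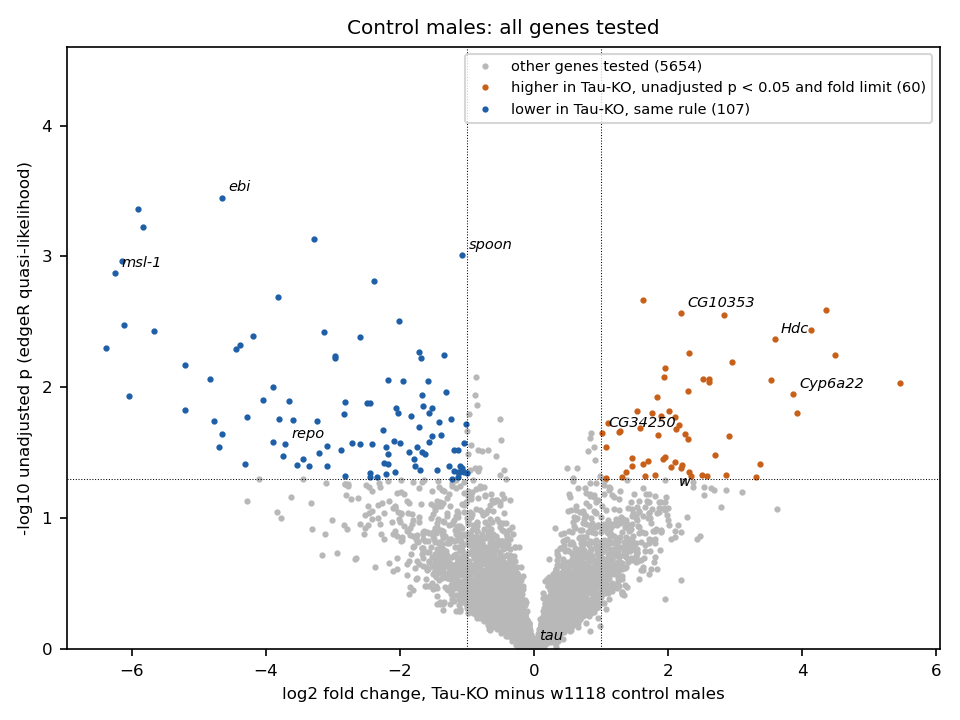
Log2 fold change (Tau-KO minus w1118 control males, x axis) against −log10 of the unadjusted p (y axis) for the 5821 genes tested. Dotted lines mark the fold limit and p of 0.05; orange points are the 60 genes listed as higher and blue points the 107 listed as lower, none of which passed at an adjusted p. The points far from 0 on the x axis are genes of low count, and tau sits at 0.

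The listed genes were mostly of low count. Their median level was 16.9 CPM for the 60 higher and 14.1 CPM for the 107 lower genes, against 35.3 CPM over all genes tested. In Tau-KO replicate 1, 34 of the 60 higher genes (56.7%) and 68 of the 107 lower genes (63.6%) had no count, compared with 33% of all genes tested. Among the lower genes, 14 had no count in any Tau-KO library. None of the values that follow passed an adjusted p, and they are given as levels.

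Among genes higher in every Tau-KO library, CG10353 had the smallest p. It was at 3.27, 14.7 and 12.4 CPM in w1118 and at 19.2, 72.8 and 38.3 CPM in Tau-KO, a log2 fold change of 2.19 ± 0.693 (SE) with an unadjusted p of 0.00272. CG14174 was at 6.55, 2.76 and 8.26 CPM against 19.2, 34.6 and 58.9 CPM. Pc, the chromodomain subunit of Polycomb repressive complex 1, was at 8.18, 0 and 11 CPM against 38.4, 22.7 and 26.2 CPM, a log2 fold change of 2.10 with a 95% interval of 0.41 to 3.87. The value was 1.45 without w1118 replicate 2 and 2.83 without w1118 replicate 3. Cyp6a22, a cytochrome P450, was at 0, 0 and 2.75 CPM in w1118 and at 19.2, 20.3 and 9.35 CPM in Tau-KO, which is 2 counts against 28 in all. TMS1, a member of the family of serine incorporators, was at 0, 0.921 and 1.38 CPM against 38.4, 7.16 and 15.0 CPM, and its Tau-KO values rest on 2, 6 and 16 counts. The 19.2 and 38.4 CPM of replicate 1 in these genes stand for 1 and 2 counts. CG34250 was the most abundant of the 15 leading higher genes, at 88.4, 142 and 132 CPM against 173, 249 and 282 CPM, a log2 fold change of 1.01 ± 0.424 (SE). The other 9 leading genes, white among them, had log2 fold changes from 1.27 to 4.14.

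Among genes lower in every Tau-KO library, spoon, an A-kinase anchoring protein, was the most abundant of the leading ones. It was at 187, 258 and 178 CPM in w1118 and at 76.9, 103.8 and 102.9 CPM in Tau-KO, from 114, 280 and 129 counts against 4, 87 and 110. The log2 fold change was −1.07 ± 0.302 (SE), the 95% interval −1.68 to −0.46 and the unadjusted p 0.000977. With each library left out in turn it lay between −1.17 and −0.88, a range partly set by its choice as a gene without overlap. ebi, a WD40 protein of a transcriptional corepressor complex, had the smallest p of all genes and was at 4.91, 32.2 and 13.8 CPM against 0, 0 and 0.935 CPM, or 48 counts against 1. Tango10, a BTB-domain protein that acts in the output of the circadian clock, was at 13.1, 47.0 and 16.5 CPM against 0, 2.39 and 2.81 CPM. Atg16, a component of the autophagy machinery, was at 14.7, 10.1 and 5.51 CPM against 0, 1.19 and 0 CPM. In each of these 3 genes Tau-KO replicate 1 had no count, where 19.2 CPM corresponds to 1 count.

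Several lower genes had no count at all in Tau-KO, so their difference has only a lower bound, set by 3 counts over the 3 Tau-KO libraries. msl-1, the scaffold of the complex that raises transcription of the male X chromosome, was at 22.9, 3.68 and 20.6 CPM in w1118 and was at least 8.89-fold lower in Tau-KO by this bound. Daxx, named for its mammalian homologue, a histone chaperone, was at 8.18, 12 and 22 CPM and at least 9.16-fold lower. CG13737 was at least 8.62-fold, CG9449 at least 8.35-fold, CG8944 at least 7.28-fold and CG5079 at least 6.74-fold lower. These bounds allow for counting error in the Tau-KO libraries only. They take the w1118 level as read, without its counting error, and leave out the spread between brains. The w1118 levels behind them ranged from 25 counts for CG5079 to 34 counts for Daxx over 3 libraries.

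**Figure D3:**
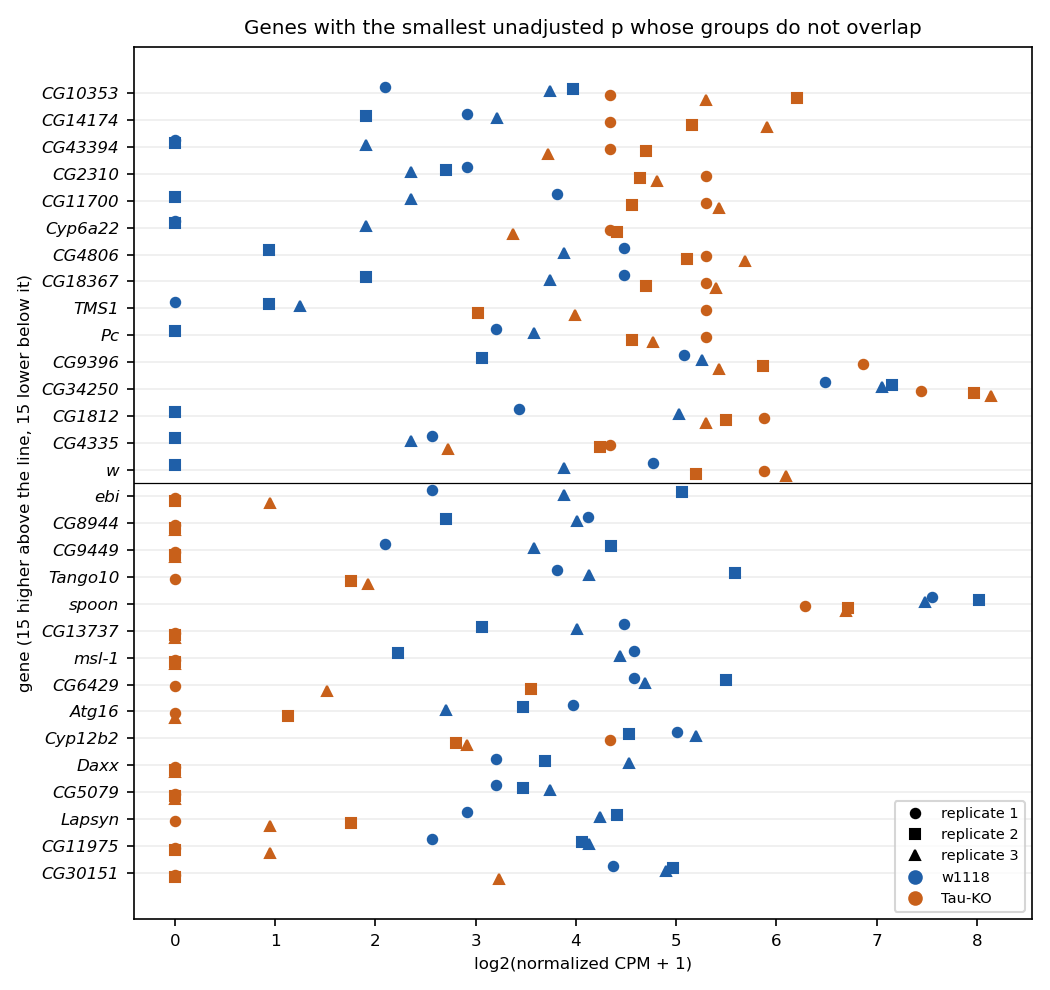
Level of the 15 genes with the smallest unadjusted p in each direction among those whose strains do not overlap, as log2(normalized CPM + 1) in each of the 6 libraries. Blue is w1118, orange Tau-KO, and the marker shape gives the replicate. Most genes sit under 6 on this scale; spoon and CG34250 are the most abundant, and 6 of the lower genes have all 3 Tau-KO points at 0.

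Only 12 of the 167 listed genes had a mean above 50 CPM, 3 of them higher and 9 lower. Among the lower ones, Nrx-IV, a component of the septate junctions of glia, was at 162, 36.8 and 96.4 CPM against 57.6, 46.5 and 14 CPM, and the groups overlapped. tyf, which promotes translation of the clock gene period, was at 105, 25.8 and 100 CPM against 38.4, 14.3 and 39.3 CPM. In both genes w1118 replicate 2, a library that stood apart, lay within the range of Tau-KO. tamo, a regulator of nuclear import, had the same form, with 229, 46.0 and 167 CPM against 115, 27.4 and 17.8 CPM. Together with CG11970 (683, 65.4 and 500 CPM against 288, 93.1 and 69.2 CPM) tamo passed an adjusted p under 0.05 when no filter on counts was applied. In that fit the test no longer used a variance of each gene's own.

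The listed genes were then read in libraries that the contrast had not used. Of the 167 genes, 2 (1.2%) were also listed in the same direction between Tau-KO and w1118 control females, where 249 genes (4.28% of those tested) were listed, and 3 were listed in the opposite direction. The pair was Cyp6a22 and CG5149, or 0.803% of the female list. Cyp6a22 had a log2 fold change of 3.87 in males and 3.61 in females, and in injured males its counts were too few for an estimate. In injured males, with 18 libraries and 300 genes listed (5.15%), again 2 of the 167 were listed in the same direction, CG11975 and CG3065 (0.667% of that list), and 7 in the opposite direction. The sign of the strain difference was the same as in control males for 57 of the 167 genes in females (34.1%) and for 53 in injured males (31.7%). Over all genes tested it was the same for 41.6% and 36.8%. The 60 higher genes had a median log2 fold change of 2.14 in control males, −0.26 in control females and −0.41 in injured males. The 107 lower genes had medians of −2.34, 0.24 and 0.17. spoon, at −1.07 in control males, had a difference of opposite sign in control females, at 0.13, and in injured males, at 0.17.

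**Figure D4:**
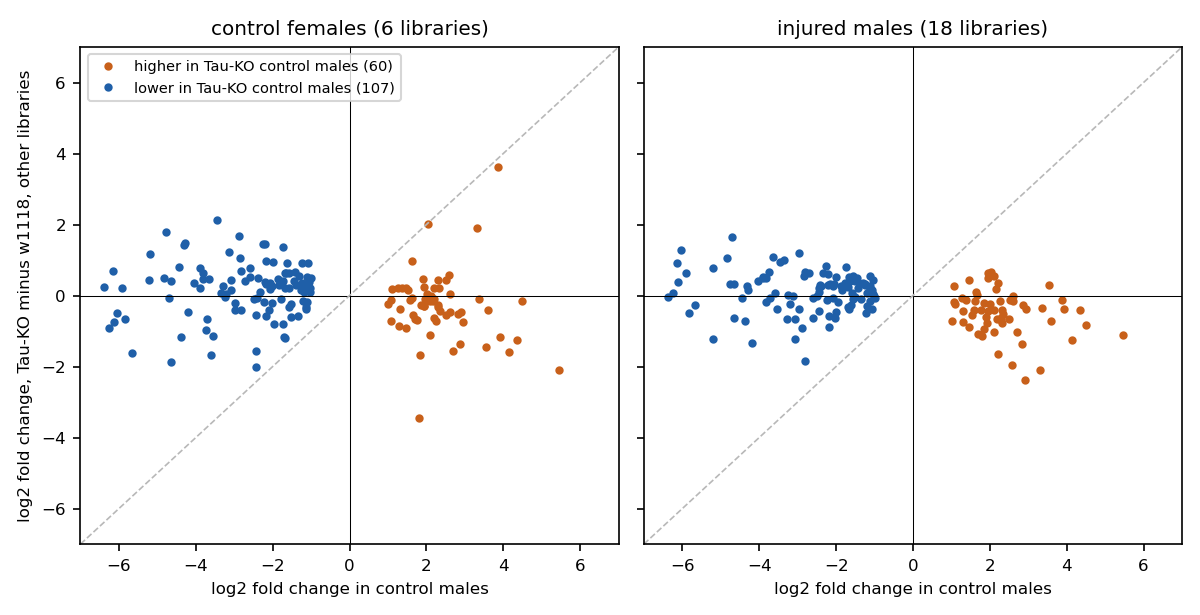
Strain difference (log2 fold change, Tau-KO minus w1118) of the 167 listed genes in control males (x axis) against that in control females (left, y axis) and in injured males (right, y axis), which share no library with the control males. The dashed line marks equal values. Orange genes, chosen as higher, and blue genes, chosen as lower, scatter about 0 on both y axes, with medians of −0.26 and 0.24 in females.

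Whether the strain difference itself varied between the sexes or with injury was tested by contrasts of differences. No gene passed an adjusted p under 0.05 for control males against control females, where 354 genes had an unadjusted p under 0.05 past the fold limit and the smallest adjusted p was 0.762 (edgeR). Nor did any for control males against injured males, with 396 genes at an unadjusted p and a smallest adjusted p of 0.627; DESeq2 gave 0 for both. The gene with the smallest p between the sexes was CG7720, with a strain difference of 1.8 in males and −3.46 in females. CG6295 followed, with 0.49 in males and −6.02 in females, and so its large term comes from the female libraries. Between control and injured males CG14174 had the smallest p, at 2.83 against −1.37. CG8944, CG13737, spoon, CG34250, CG10353 and Atg16, all named above for control males, were among the 8 genes with the smallest p here. The control male libraries enter both contrasts.

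The libraries set a limit on what could be seen. The 95% interval of a log2 fold change extended by a median of 1.31 to either side over all genes tested. For the 1899 genes under 20 CPM it was 2.04, for the 1598 genes at 20 to 50 CPM 1.34, for the 1586 genes at 50 to 200 CPM 0.90 and for the 738 genes over 200 CPM 0.62. Listed genes fell in the same order, with 106, 49, 12 and 0 genes in these 4 classes, so that the classes with the widest intervals held the most of them. For 1025 genes (17.6%) the whole interval lay within a 2-fold change in either direction, including 530 of the genes over 200 CPM (71.8%). For those genes a strain difference larger than 2-fold lies outside the interval; for most genes under 50 CPM a 2-fold difference lies within it. The width holds both counting error and the spread between single brains, and their shares were not separated.

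Genes of the microtubule system, to which tau belongs, had no member at an unadjusted p under 0.05. Of 11 structural microtubule-associated proteins tested, 3 had a positive log2 fold change, and the median was −0.12 against −0.04 over all genes tested. futsch was at 597, 672 and 516 CPM in w1118 and at 404, 518 and 560 CPM in Tau-KO, a log2 fold change of −0.25 with a 95% interval of −0.81 to 0.31. Jupiter, a microtubule-binding protein, was at 259, 302 and 255 CPM against 173, 240 and 225 CPM, so that the groups did not overlap, but its log2 fold change of −0.31 had an interval of −0.86 to 0.24. stai, the fly stathmin, which binds free tubulin, was at −0.09 (−0.53 to 0.36), and shot, the spectraplakin that links microtubules to actin, at −0.37 (−0.98 to 0.24). The intervals of futsch, Jupiter, stai and shot all lie within a 2-fold change.

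Kinases and phosphatase subunits known to act on tau were listed by their fly names. Of 15 tested, 5 had a positive log2 fold change, with a median of −0.25. par-1, the homologue of the MARK kinases, was at 267, 253 and 260 CPM against 211, 192 and 238 CPM, at −0.28 (−0.93 to 0.37). sgg, the fly GSK-3, was at 445, 312 and 410 CPM against 500, 284 and 254 CPM, at −0.25 (−1.03 to 0.53). mts, the catalytic subunit of protein phosphatase 2A, was at −0.24 (−0.74 to 0.25). bsk, the Jun kinase, had the largest positive value of the list, 1.47 (−0.54 to 3.52), from 3.27, 16.6 and 5.51 CPM against 0, 39.4 and 19.6 CPM, and Cdk5alpha, the activator of Cdk5, was at 0.75 (−1.32 to 2.84).

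Tubulins had 5 of 6 tested members with a positive value and a median of 0.31, but −0.78 in control females, −0.45 in injured males and −0.34 when Tau-KO replicate 3 was left out. alphaTub84B was at 828, 1250 and 954 CPM against 673, 1130 and 1670 CPM, and betaTub56D at 599, 1030 and 675 CPM against 596, 1000 and 1150 CPM. In both genes the lowest and the highest value came from Tau-KO, in replicates 1 and 3, the shallowest and the deepest library. Motors and adaptors of axonal transport (14 tested) had a median of 0.07. The kinesin unc-104, which carries synaptic vesicle precursors, was at −0.15 (−0.68 to 0.37), and ctp, the dynein light chain, at 0.10 (−0.28 to 0.49) with 1960 to 3390 CPM over the 6 libraries.

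Across all 39 gene lists with a tested member, 883 different genes were tested, of which 5 were listed as higher and 8 as lower at an unadjusted p (1.47%, against 2.87% of all genes tested), and 0 at an adjusted p. The higher ones were w, Cyp6a22, Hdc, VhaM9.7-c and CR44517. Hdc, the histidine decarboxylase that makes histamine in photoreceptors, was at 1.64, 0.921 and 1.38 CPM in w1118 and at 0, 23.9 and 16.8 CPM in Tau-KO. VhaM9.7-c, a subunit of the vacuolar proton pump, was at 3.27, 0 and 1.38 CPM against 0, 25.1 and 17.8 CPM. Both were above w1118 in Tau-KO replicates 2 and 3 alone, which stood apart. Tau-KO replicate 1 had no count, but at 19.2 CPM for 1 count it could not have shown the w1118 levels either.

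The lower ones were axo, repo, Cyp12b2, GstZ1, msl-1, CR43051, CR45417 and CR45919. axo, axotactin, a protein that fly glia secrete onto axons, was at 42.6, 57.1 and 67.5 CPM against 19.2, 25.1 and 31.8 CPM, without overlap and at −1.02 ± 0.420 (SE). repo, the homeodomain factor that defines glia, was at 16.4, 6.45 and 11 CPM against 19.2, 0 and 0 CPM, so that the highest value was in Tau-KO. The 21 glial genes tested had a median of −0.04 with 10 positive, and the glial glutamine synthetase Gs2 was at 1280, 765 and 1130 CPM against 1270, 965 and 841 CPM. Cyp12b2, a cytochrome P450, was at 31.1, 22.1 and 35.8 CPM against 19.2, 5.97 and 6.55 CPM, and GstZ1, a glutathione S-transferase, at 21.3, 2.76 and 12.4 CPM against 0, 1.19 and 0 CPM. Over the 35 cytochrome P450 genes the median was 0.09 and over the 19 glutathione S-transferases 0.00.

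No other list had a member past even the unadjusted threshold with its fold limit. Some members under the fold limit had an unadjusted p under 0.05 in edgeR. Pdp1 of the clock gene list was at −0.49 (p of 0.0251), and CG13868 of the activity-regulated list at 0.64 (p of 0.0411). Neuronal genes (28 tested) had a median of −0.11, cytosolic ribosomal protein genes (82) −0.03, mitochondrial ribosomal protein genes (61) 0.13, nuclear respiratory chain genes (68) 0.03 and proteasome subunits (29) −0.08. Antimicrobial peptides (23) had a median of −0.19 with 3 positive, and Imd and Toll pathway genes (20) of −0.27 with 6 positive. In control females and injured males the medians were −0.30 and −0.42 for antimicrobial peptides, and −0.14 and 0.03 for Imd and Toll genes. Library medians of the antimicrobial peptides had an SD of 0.33 within the control male groups. All 6 sodium pump genes had negative values, with a median of −0.34, yet Atpalpha, the pump's main subunit, was at −0.04 (−0.46 to 0.38). In control females the median of that list was 0.64. Markers of tissues beside the brain were present in both strains: photoreceptor genes summed to 6750 to 13300 CPM in w1118 and to 8980 to 10500 CPM in Tau-KO, fat body genes to 5670 to 8200 and 5210 to 7070 CPM, and muscle genes to 4680 to 5530 and 4020 to 5980 CPM. Gut digestive enzymes summed to 1440 to 1670 and 826 to 1760 CPM, and hemocyte genes to 322 to 493 and 344 to 433 CPM. Genes of the testis and accessory glands summed to 53.4 to 73.7 CPM in w1118 and to 0, 70.4 and 56.1 CPM in Tau-KO. The ranges of the strains overlapped in each of these lists, and fewer cells of a type cannot be told apart from less RNA per cell.

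**Figure D5:**
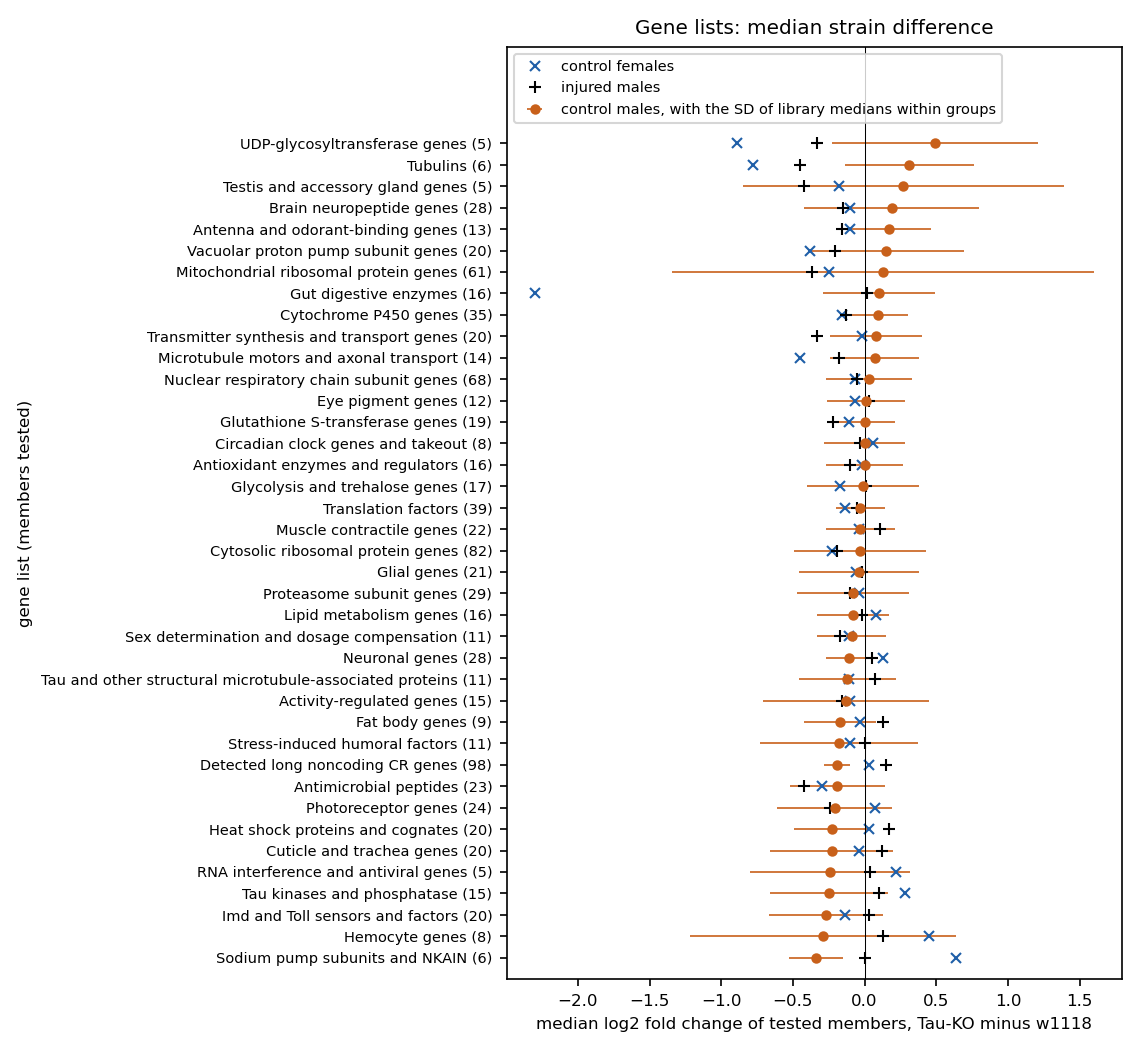
Median log2 fold change (Tau-KO minus w1118) of the tested members of each gene list with at least 5 of them. Orange points are control males with the SD of the library medians within groups, blue crosses control females and black plus signs injured males. The control male medians run from −0.34 for sodium pump genes to 0.49 for UDP-glycosyltransferases, and gut digestive enzymes are at 0.10 in control males and at −2.30 in control females.

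Genes next to tau on chromosome arm 3R were examined because the strains may also differ along the chromosome that carries tau. Of the 10 nearest annotated genes on each side, 9 had enough counts to be tested, and none of the 9 was at an unadjusted p under 0.05 or without overlap between the strains. Their log2 fold changes ran from −0.69 for Mtl, a Rac-like GTPase gene and the nearest neighbour on one side, to 0.23 for CG5646. wdb, a regulatory subunit of protein phosphatase 2A, was at 267, 207 and 197 CPM against 211, 234 and 157 CPM, and unc80, a subunit of a sodium leak channel, at 417, 189 and 326 CPM against 480, 264 and 303 CPM. Listed genes were found on every major chromosome arm, with 2.85% of tested genes on 2L, 2.55% on 2R, 3.36% on 3L, 2.73% on 3R and 3.06% on X, and the fourth chromosome had 1 of 65. The arm of tau thus held a share close to that of all genes tested, and the X chromosome, which carries white, had 10 higher and 21 lower genes.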

How the data were processed

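The authors made libraries with the QuantSeq 3′ mRNA kit, separated samples with CASAVA 1.8.2, aligned the 50-base reads to dm3 with STAR 2.4 and counted reads per gene with HTSeq. The annotation release and the strand setting of the counting are not given in the sources used here, so reads of overlapping genes cannot be told apart. The deposited values are raw whole-number counts for 16995 genes. A further 5 entries for reads not assigned to a gene took 26.6 to 52.8% of the reads of the 6 libraries and were left out. The authors' 16 comparison tables (fold changes and p-values from edgeR 3.22.3) were not used.

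In edgeR 4.0.16 (R 4.3.3, limma 3.58.1), filterByExpr (minimum count 10) and TMM scaling were followed by glmQLFit and glmQLFTest over all 48 libraries with 1 mean per group and no covariate. The SE is the fitted effect divided by the root of the test's F value, and p-values were adjusted by Benjamini and Hochberg over 5821 genes. The biological coefficient of variation was 0.447. Replicates are single brains, and p-values measure the spread between them. If the brains of a group shared a dish, that spread does not hold differences between dishes. The threshold was an adjusted p of 0.05 together with a 2-fold change; the unadjusted list was added after no gene passed. Genes named were drawn from tau, white, in each direction the 15 non-overlapping genes of smallest p (taken from the unadjusted list), and list members on it. The tau neighbours and the first 8 genes by p in each contrast of differences were further sources. Not every gene of these sets is named. Listed genes over 50 CPM, CG11970 and other list members with their values were chosen after their values were seen. The comparison and the gene lists were chosen with earlier results of these data known. Neighbours and arms come from RefSeq's Release 6 annotation, by order alone, with 5779 of the 5821 symbols matched. No 2 libraries were duplicates. The workflow was tested on simulated data. Alternatives were DESeq2 1.42.0 and its size factors, other filters, the replicate number as a block, the 6 libraries alone, thinning, and leaving out libraries.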

Additional observations from a re-analysis of the deposited data

How the results depend on the processing

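At an adjusted p the count of genes in control males stayed at 0 in each alternative tried except the fit without a filter, which gave 2, CG11970 and tamo. The same fit gave 35 genes in control females, 47 in injured males, 20 for the difference between the sexes and 20 for that with injury, where the fit with a filter gave 0. In it 11051 genes were tested and the estimated prior degrees of freedom were infinite instead of 8.9, so that the variance used for CG11970 was 0.67 instead of 7.87 and its unadjusted p 2.23e-06 instead of 0.167. DESeq2 gave 1 gene in control females, and leaving out 1 library there gave 0 to 1, with 1 gene without w1118 replicate 2, without w1118 replicate 3 or without Tau-KO replicate 1.

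The unadjusted list of 167 genes held 498 without a filter, 32 with a minimum count of 30, 75 with only the 6 libraries, 160 with DESeq2's size factors, 220 with DESeq2 and 239 when thinned, of which 28 were among the 167. Leaving out 1 library gave 146 to 273 genes: 253 without Tau-KO replicate 1, of which 141 were among the 167, and 273 without Tau-KO replicate 3, of which 86 were. The listed genes were 70 higher and 90 lower with DESeq2's size factors. Whether the replicate numbers pair the libraries is not given in the sources used here. The correlation of same-numbered deviations was 0.634, 0.412 and −0.23 for replicates 1, 2 and 3. Many libraries of the series were closest to one of the same number. An example is w1118 male 1 hr replicate 1, closest to Tau-KO male 1 hr replicate 1. Others were not, such as w1118 female control replicate 2, closest to w1118 male control replicate 3. With the replicate number as a block the count was 0 at an adjusted p and 177 unadjusted, and with the block in the 6 libraries alone 84.

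Of the 30 leading genes, 29 never changed sign over up to 15 alternatives. They were chosen as not overlapping in these same 6 libraries, so a kept sign was largely set by that choice. Even so, CG8944 fell to 0.00 and CG30151 to −0.02 when thinned, where CG10353 was at −0.04. Thinning leaves such genes a few counts at most. Values near 0 did change sign. tau was at 0.08 with DESeq2's size factors and with DESeq2, 0.06 with the minimum count of 30, 0.01 in the 6 libraries, 0.03 there with the block and 0.54 when thinned. Mlc1 was at 0.03, 0.05, 0.01, 0.11 with the block and 0.14 with the block in 6 libraries, Sce at 0.11 with the block, and Tusp at 0.66 with the block in 6 libraries, 0.53 thinned and 0.44 without the libraries that stood apart. Thinning also turned CR45417 (4.95). Without the libraries that stood apart Hdc was at −3.0, repo at 0.49, VhaM9.7-c at −3.54 and CR44517 at −4.20, where Tau-KO was 1 library in which these genes had 0 or 1 count, so these values say nothing about stability. With 1 library left out the ranges were −0.30 to 0.17 for tau, −0.45 to 0.36 for Mlc1, −0.16 to 0.39 for unc80, −5.64 to 0.59 for Sce, −1.03 to 0.15 for Tusp, −0.04 to 0.73 for CG5646, −0.55 to 0.05 for CG5590 and −0.34 to 0.01 for wdb. For the other sign changes the cause was not tested. The smallest adjusted p over these alternatives was 0.126 among the 49 genes followed there, which exclude tamo and CG11970.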
